A study of Mus musculus with 6 samples.

Results

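Solute carriers are membrane proteins that move sugars, lactate, amino acids, metals, ions, nucleotide sugars, vitamins and organic ions across the plasma membrane or the membranes of organelles. The genes described here were those with an m6A peak whose name consists of Slc, a number, a letter and a number, together with the Slco genes. The Slc25a family of mitochondrial carriers, Slc38a9 and Slc2a5 were left out. In the comparison of ClpP knockout with WT these were 250 peaks on 153 genes, of 24127 peaks on 13334 genes in all. In the comparison of ClpX knockout with WT they were 254 peaks on 152 genes, of 23681 peaks on 13085 genes. Together 166 carrier genes had a peak, and 139 of them had one in both comparisons. The choice was by family name and not by measured location, and Slc30a9, which is known as a zinc carrier of mitochondria, was kept by it.

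N6-methyladenosine (m6A) is a methyl mark placed on adenosines of messenger RNA, often near the stop codon and in the motif GGAC, and proteins that read the mark affect the splicing, decay and translation of the transcript. Male germ cells have a carrier set of their own. Sertoli cells feed lactate to spermatocytes, which take it up through monocarboxylate carriers, while later germ cells and sperm also use glucose and carnitine. Amino acid carriers at the plasma membrane and the lysosome supply the leucine, arginine and glutamine that the kinase complex mTORC1 senses, and mTORC1 signalling is named in the title of the study.

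Cells labelled as spermatocytes were taken from male mice at postnatal day 35, in 3 genotypes: ClpP knockout (ClpP_cKO), ClpX knockout (ClpX_cKO) and WT. Both knockouts were made with Stra8-Cre, which is active in germ cells, and ClpP and ClpX are the protease subunit and the unfoldase of a protease of the mitochondrial matrix. Each genotype gave 1 immunoprecipitated (IP) library, which holds RNA captured by the m6A antibody, and 1 input library, so the 6 groups held 1 library each. Every comparison thus rested on 4 libraries, no value has a replicate error, no difference has a replicate check, and both comparisons used the same WT libraries.

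The values are the authors' own and are given per peak, not per sample, with positions in GRCm38 (mm10). Each peak has a fold enrichment of IP over input, which is a linear ratio, a log2 fold change between genotypes, and an adjusted p for that difference. A positive log2 fold change was read as higher m6A enrichment in the knockout, a direction that rests only on each table naming the knockout before WT. A peak counts as called at an adjusted p under 0.05 by the authors' test, which compares these libraries and not the genotypes. The median log2 fold change of all peaks was -0.03 for ClpP and 0.24 for ClpX, so the ClpX values are to be read against that shift. Read depth is unknown here. Of 7 marker genes of pachytene spermatocytes, 7 had a peak in the ClpP comparison and 6 in the ClpX comparison, where Sycp3 had none. Of these pachytene peaks, 5 of 14 were called lower and 0 higher for ClpP (median -0.11), and 3 of 11 higher and 1 lower for ClpX (median 0.84). Markers of other testis cells also had peaks, among them 5 of 6 for Sertoli cells in both comparisons, and 2 of 5 (ClpP) and 4 of 5 (ClpX) for Leydig cells. In the ClpX comparison the 10 peaks of spermatid markers centred on 0.79 (median, log2 scale), and 7 were called higher and 0 lower. For ClpP these markers had 8 peaks, 2 called higher and 1 lower. Spermatogonia markers had 5 of 8 peaks called higher for ClpX and 1 of 11 for ClpP, and Sertoli markers 3 of 9 and 1 of 10. Leydig markers had 2 of 5 called higher for ClpX (median 2.01) and 0 of 4 for ClpP. Peritubular markers had 0 of 6 called higher for ClpX and 2 of 5 for ClpP. Macrophage markers had 0 of 5 and 0 of 3, and endothelial markers 0 of 1 in each comparison. Over all peaks, 15.1% were called higher and 5.00% lower for ClpX, and 6.74% higher and 12.8% lower for ClpP. The marker counts are small beside these shares. The part of other cells in the values below was not tested.

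Sequence could be read only where a peak ran into the window around a RefSeq gene start (250 bases before to 50 after, build GRCm38.p6). Not all chromosomes were searched and short stretches were left out, so the counts cover only the stretches read. These were 22 stretches of 18 carriers in the ClpP comparison and 25 stretches of 21 carriers in the ClpX comparison. The motif GGAC was searched on both strands. On the transcript strand it was found in 9 of the 22 and 9 of the 25 stretches. The sites below, with GGAC in capitals and written 5′ to 3′ on the transcript strand, lie in peaks that were called, and are shown because these peaks recur in the results.
Slc7a4, chr16:17575726-17575755, minus strand: gcacagtggccaaGGACatggctggccccg
Slc7a4, chr16:17575798-17575827, minus strand: gcctgtccacactGGACttgactctactgg
Slc7a4, chr16:17575899-17575928, minus strand: ccggGGACtgcccagtactgcctgtttggc
Slc30a1, chr1:191907584-191907613, plus strand: attccaacgggctgaaggcGGACcaggcag
Slc13a5, chr11:72266630-72266659, minus strand: aatccggtgGGACcgcgcgtccccctttta
Slc22a21, chr11:53979915-53979944, minus strand: gctccgcgtgcacGGACaaaccgtgcgccg
The 300 bases readable in the Slc7a4 peak held 3 GGAC on the transcript strand and 2 on the other, and 65.6% of all 32851 start windows hold at least 1 on the transcript strand. For Slc30a1, 38 bases were readable, and 14.7% of windows hold the motif in their last 38 bases. The 105 bases of Slc13a5 compare with 33.2% of windows and the 197 bases of Slc22a21 with 51.5%. These shares are for the same number of bases at the 3′ end of each window, on the strand of the window's own gene. They are not matched to the place of the peak in its window. For Slc7a4 and Slc30a1 they are not matched to its strand either. No GGAC was found in the 46 readable bases of the 5′ peak of Slc16a1 or the 110 of Slc7a8, both called lower in ClpP cKO, which says only that these letters are not in those windows. The 32 readable bases of the Slc39a7 peak called lower in ClpP cKO held 0 on the transcript strand and 1 on the other.

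In ClpP cKO the carriers were mostly called lower where they were called. Of 250 carrier peaks, 39 (15.6%) on 34 genes were called lower and 8 (3.20%) on 8 genes were called higher. Over all peaks of this comparison 12.8% were called lower and 6.74% higher. The exact 95% binomial intervals of the carrier shares, which treat peaks as independent and cover counting error only, were 11.3% to 20.7% for lower and 1.39% to 6.21% for higher. The median log2 fold change of carrier peaks was -0.16, against -0.03 for all peaks, and 42.4% of carrier peaks were positive, against 47.7% of all. Called peaks had a median of -0.78 on the lower side and 1.24 on the higher side. With the ClpP median subtracted and calls made anew, 12 carrier peaks were higher and 38 lower. The 4 gained were peaks of Slc38a2 (2.22), Slc7a6 (0.43), Slc19a2 (0.04) and Slc26a2 (0.03). Shares of all peaks after this step were not counted, so these counts have no background beside them.

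In ClpX cKO 29 of 254 carrier peaks (11.4%) on 27 genes were called higher and 13 (5.12%) on 12 genes lower. All peaks of this comparison gave 15.1% higher and 5.00% lower. The intervals were 7.78% to 16.0% and 2.75% to 8.59%. Carrier peaks had a median log2 fold change of 0.19, against 0.24 for all peaks, so the carriers as a whole sat close to the table's own shift. After subtraction of the table median with calls made anew, 20 carrier peaks were higher and 39 lower. This step lowers every peak of the comparison by the same 0.24. Shares of all peaks after it were not counted, so the 39 is not to be set beside the 5.00% above. Of the 29 peaks called higher, 20 were still higher and 9 were no longer called, and the 13 called lower were still called lower. Another 26 peaks, not called as deposited, were lower relative to that median, among them peaks of Slc39a7 (-0.82), Slc39a10 (-0.77), Slc52a2 (-1.02), Slc26a8 (-0.42) and Slc30a1 (-0.51), so a ClpX peak given below as not called is not shown to be unchanged. For peaks with a deposited value close to 0 the error taken from the p is uncertain, and these recounts with it. Over both comparisons, 63 carrier genes had a called peak and 103 had none.

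**Figure D1:**
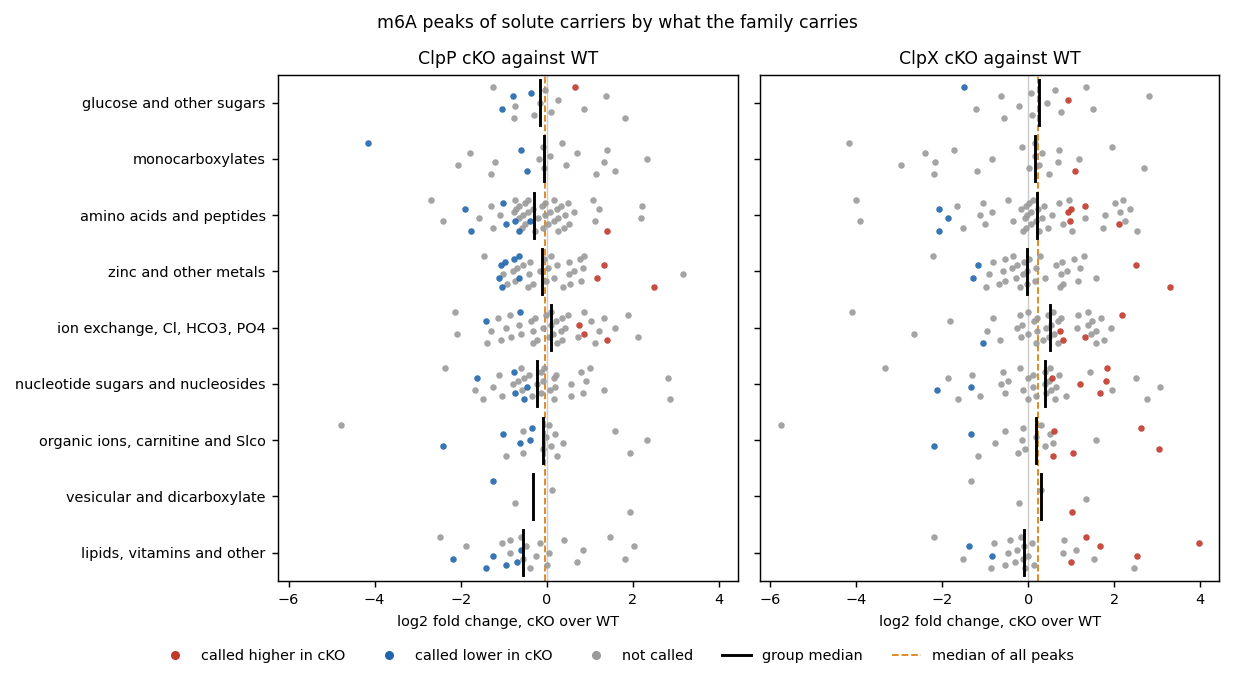
Log2 fold change (cKO over WT) of every carrier peak, grouped by what the family carries, for ClpP (left) and ClpX (right). Each dot is 1 peak, black bars are group medians and the dashed line is the median of all peaks. Most coloured dots lie left of 0 in the ClpP panel (39 lower, 8 higher) and right of 0 in the ClpX panel (29 higher, 13 lower).

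The called carriers were also set out by how strongly each peak was enriched. Called-higher carrier peaks of ClpX cKO had a median fold enrichment of 4.57 and called-lower ones of 16.7, while the median over all carrier peaks was 9.54. Below or at the table median of fold enrichment, 25 of 123 carrier peaks were called higher in ClpX cKO and 2 lower, and their log2 fold changes centred on 0.57 (median). Above it 4 of 131 were higher and 11 lower, with a median of -0.08. All peaks of the table followed the same division, with 24.3% higher and 2.22% lower in the weakly enriched part and 5.80% higher and 7.79% lower in the strongly enriched part. In ClpP cKO both parts held more lower than higher calls, 15 against 4 of 121 carrier peaks in the weakly enriched part and 24 against 4 of 129 in the strongly enriched part. All peaks did so too, with 13.1% lower and 10.4% higher in the weakly enriched part and 12.6% lower and 3.06% higher in the strongly enriched part.

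**Figure D2:**
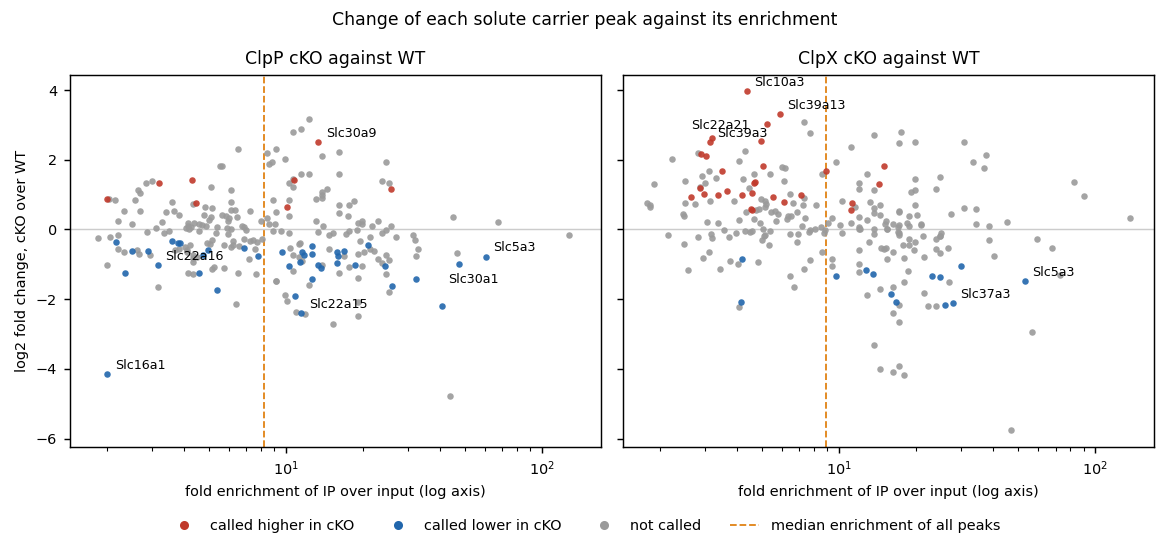
Log2 fold change (cKO over WT) of each carrier peak against its fold enrichment of IP over input (log axis), with the median enrichment of all peaks as a dashed line. In the ClpX panel 25 of the 29 peaks called higher lie at or left of the line and 11 of the 13 called lower lie right of it. In the ClpP panel called-lower peaks lie on both sides.

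The counts by group that follow are small and are to be read beside the shares of all peaks, 12.8% lower and 6.74% higher for ClpP and 15.1% higher and 5.00% lower for ClpX. Fuel carriers were described first, since spermatocytes and sperm depend on imported lactate, glucose and carnitine. Among monocarboxylate carriers (Slc16), 3 of 19 peaks (15.8%, near the 12.8% of all peaks) were called lower and 0 higher in ClpP cKO, and in ClpX cKO 1 of 21 was called higher and 0 lower. Slc16a1, the lactate and pyruvate carrier MCT1, had a 5′ peak (chr3:104638668-104638817, 0.4% into the gene span) that the authors' deposited table for ClpP put at -4.15 on the log2 scale (fold enrichment 2.01, adjusted p 1e-16). This was the largest change among called carrier peaks in either comparison. Its downstream peak, 79.4% into the span, had -0.463 (adjusted p 0.00026) in the authors' deposited table for ClpP. For ClpX the authors' deposited table gave the Slc16a1 peaks -0.138 and 0.16, neither called. The 5′ peak for ClpX is longer (chr3:104638668-104649276, fold enrichment 6.93) and shares 150 bases with that for ClpP. The values -4.15 and -0.138 are thus not of the same interval. Slc16a7, the MCT2 carrier found in sperm, had its wider 3′ peak at -0.593 (adjusted p 1.3e-11) for ClpP and 0.0196, not called, for ClpX in the authors' deposited tables. The neighbouring Slc16a7 peak further 3′ had 0.0854, not called, for ClpP and 1.09 (adjusted p 0.0069) for ClpX in the authors' deposited tables.

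Sugar carriers were called at peaks of Slc2a3, Slc5a3 and Slc45a4. Slc2a3, the glucose carrier GLUT3, had a single peak, in the ClpP comparison at chr6:122729695-122730114 and 97.2% into the gene span. The authors' deposited table for ClpP gave it -0.36 (fold enrichment 2.18, adjusted p 1.3e-18). For ClpX, where the peak is longer, it had 0.921 in the authors' deposited table (fold enrichment 2.63, adjusted p 2e-58), with the smallest adjusted p of all carrier peaks. Slc2a1, the GLUT1 carrier, had -0.77 (adjusted p 0.054) and 0.0952 for ClpP and ClpX in the authors' deposited tables, neither called. Slc2a8 had 0.875 and 0.766, and neither was called in the authors' deposited tables. Slc5a3, which takes up myo-inositol, was among the most strongly enriched carrier transcripts and was called lower in both knockouts. Its long peak (chr16:92076741-92079619) had -0.779 for ClpP (fold enrichment 60.2, adjusted p 2.5e-06) in the authors' deposited table. In ClpX cKO the value was -1.49 (fold enrichment 53.2, adjusted p 1.6e-13), again from the authors' deposited table. In all, 3 of 15 sugar carrier peaks (beside 12.8% of all peaks) were called lower and 1 higher in ClpP cKO, and 1 of 14 each way in ClpX cKO.

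Carnitine carriers and other organic ion carriers (Slc22 and Slco) held 5 of 19 peaks called lower (26.3%, beside 12.8% of all peaks) and 0 higher in ClpP cKO. In ClpX cKO 5 of 21 were called higher (23.8%, beside 15.1%) and 2 lower (9.52%, beside 5.00%). Of these, 3 and 2 peaks belonged to Slc22a16 alone. Slc22a16, a carnitine carrier of the testis, had the smallest adjusted p of the carriers in ClpP cKO. Its 3 peaks, from 5′ to 3′, had log2 fold changes of -0.4, -1.02 and -0.623 with adjusted p values of 2.5e-06, 6.3e-45 and 0.00035 in the authors' deposited table for ClpP. All 3 were called lower, and the middle one lay at chr10:40584878-40585325. The same sites had 1.04, 0.592 and -0.121 in the authors' deposited table for ClpX, where the first and the middle one were called higher and the 3′ one was not called. A further peak at the 5′ end, listed for ClpX only, had -0.144 in the authors' deposited table and was not called.

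The carnitine carriers Slc22a5 and Slc22a21, which lie close to each other on chromosome 11, had a 5′ peak in the ClpX comparison only. In the authors' deposited table for ClpX these 5′ peaks had 2.63 (Slc22a5, adjusted p 1.3e-05) and 3.04 (Slc22a21, adjusted p 7.9e-12). The Slc22a21 peak is the one that holds the site printed above. At the 3′ end Slc22a21 had -0.339 (adjusted p 0.0021) for ClpP and 0.572 (adjusted p 0.045) for ClpX in the authors' deposited tables. The 3′ peak of Slc22a5 had -0.0161 and -0.0806, neither called in the authors' deposited tables. These genes are similar in sequence, and the sources used here do not give how reads were shared between them. Slc22a15, a carrier of zwitterions, was called lower in both knockouts at the same peak, with -2.41 for ClpP (adjusted p 2.7e-10) and -2.18 for ClpX (adjusted p 0.013) in the authors' deposited tables. Among the Slco genes, which carry larger organic anions, Slco3a1 was the only one called, with -1.32 (adjusted p 0.033) in the authors' deposited table for ClpX. Slco4a1 had the lowest value of all carrier peaks in each comparison, -4.78 and -5.75 in the authors' deposited tables, and was not called in either (adjusted p 0.27 and 0.21).

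Carriers known from germ cells and sperm formed a list of 23 genes, of which 18 had a peak in the ClpP comparison and 16 in the ClpX comparison. Of their 26 peaks in ClpP cKO, 9 were called lower and 1 higher, on a background of 12.8% and 6.74% for all peaks. The 9 lay on 6 genes, and Slc22a16 and Slc16a1 each gave more than 1 of them. Of 25 peaks in ClpX cKO, 5 on 4 genes were called higher and 1 lower, on a background of 15.1% and 5.00%. The list was chosen with earlier results of these data known, so these counts are no test of germ cell carriers as a group. Besides the fuel carriers above, the called member was Slc26a8, an anion carrier of male germ cells that is needed for sperm motility. Its main peak (chr17:28637783-28642251) had -0.625 (fold enrichment 16.8, adjusted p 1e-13) in the authors' deposited table for ClpP, and -0.176, not called, in that for ClpX. A weaker upstream peak of Slc26a8, at a fold enrichment of 2.01, had 0.877 (adjusted p 0.0071) in the authors' deposited table for ClpP. Slc22a14, a riboflavin carrier of mouse sperm, had 0.0638 and -0.243 in the authors' deposited tables and was not called. The proton exchangers Slc9b1 and Slc9b2, the chloride carrier Slc12a2 and the testis genes Slco6b1, Slco6c1 and Slco6d1 had no called peak. The Slco6 genes are similar to one another, so their peaks are uncertain. Slc9c1, Slc26a3, Slc16a3, Slc36a3 and Slc4a7 had no peak in either comparison, and Slc26a6 and Slc9a3 had one for ClpP only.

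**Figure D3:**
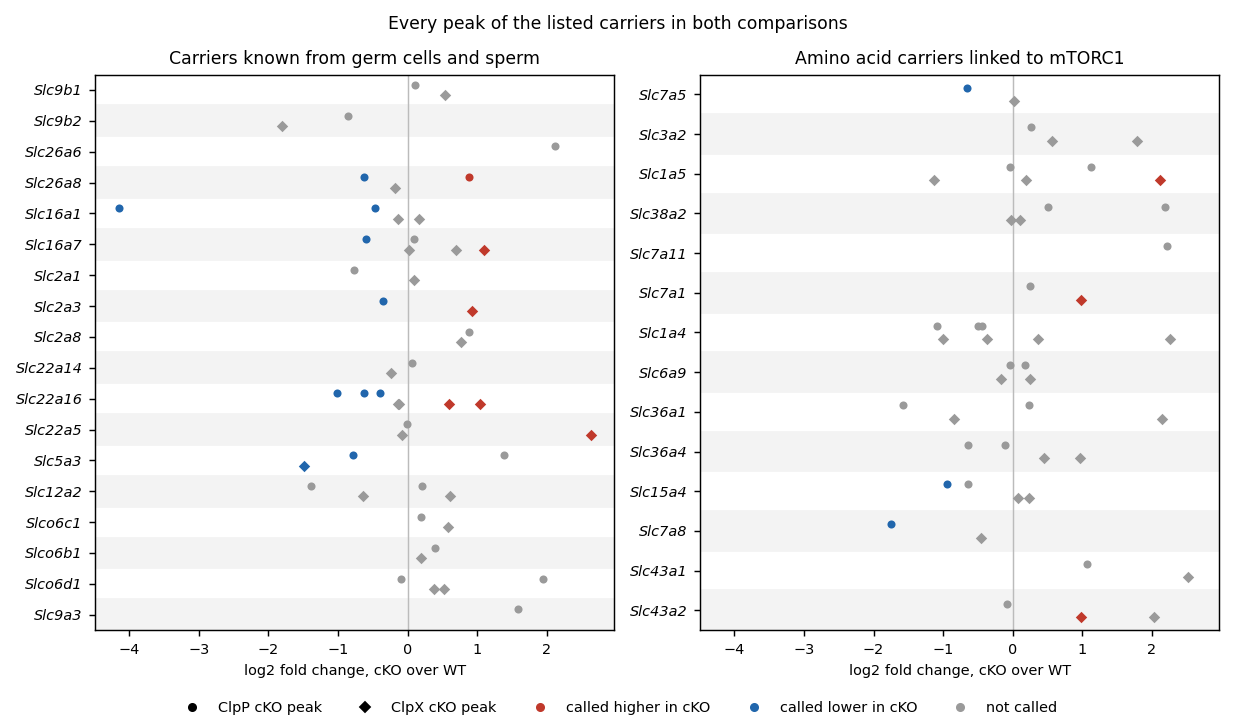
Log2 fold change (cKO over WT) of every peak of carriers known from germ cells and sperm (left) and of amino acid carriers linked to mTORC1 (right), for ClpP (circles) and ClpX (diamonds). In the left panel 9 of 26 ClpP peaks (on 6 genes) were called lower and 5 of 25 ClpX peaks (on 4 genes) higher. In the right panel 3 of 22 ClpP peaks were called lower and 3 of 25 ClpX peaks higher.

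Amino acid and peptide carriers were the largest group, with 7 of 50 peaks called lower and 1 higher in ClpP cKO (14.0% lower, near the 12.8% of all peaks). In ClpX cKO 5 of 48 were called higher and 3 lower (10.4% higher, below the 15.1% of all peaks). The medians were -0.29 and 0.22, against -0.03 and 0.24 for all peaks. Within it, a list of 15 carriers tied to mTORC1 had 22 peaks in ClpP cKO, with 3 called lower and 0 higher, and 25 peaks in ClpX cKO, with 3 called higher and 0 lower. The 13.6% lower for ClpP is close to the 12.8% of all peaks, and 3 of 25 higher for ClpX is below 15.1%. Slc7a5, the leucine carrier LAT1, had 1 peak (chr8:121882286-121882944) with -0.653 (fold enrichment 9.66, adjusted p 1e-20) in the authors' deposited table for ClpP. For ClpX the value was 0.0124 in the authors' deposited table and not called. Slc3a2, the heavy chain that pairs with Slc7a5, had a downstream peak at 0.261 for ClpP and 0.563 for ClpX in the authors' deposited tables, neither called. The difference between these partners was not tested.

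The other 2 list members called in ClpP cKO were Slc15a4, a lysosomal carrier of histidine and peptides, and Slc7a8, the carrier LAT2. Their values were -0.942 (Slc15a4, adjusted p 3.3e-07) and -1.75 (Slc7a8, adjusted p 0.018) in the authors' deposited table for ClpP. In ClpX cKO the 3 called members were Slc7a1, the arginine carrier CAT1, Slc43a2, the leucine carrier LAT4, and Slc1a5, the glutamine carrier ASCT2. The authors' deposited table for ClpX gave Slc7a1 a value of 0.985 (adjusted p 3e-05) and Slc43a2 one of 0.982 (adjusted p 0.00093). Slc1a5 had 2.12 at a weak 5′ peak (fold enrichment 3.03, adjusted p 0.049) in the authors' deposited table, and it was no longer called after the table median was subtracted. Its 3′ peak had -1.13, not called, in the authors' deposited table for ClpX. Slc38a2, a glutamine and alanine carrier, had 2.19 (adjusted p 0.051) at its upstream peak in the authors' deposited table for ClpP and was not called, but it was called higher after the ClpP median was subtracted. Slc7a11, Slc6a9, Slc36a1, Slc36a4, Slc43a1 and Slc1a4 had no called peak, and Slc7a3 had no peak.

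Slc7a4, a relative of the cationic amino acid carriers whose substrate is not established, was called lower at both of its peaks in both knockouts. Its 5′ peak (chr16:17575593-17576182), which holds the 3 sites printed above, had -1.02 for ClpP (adjusted p 0.01) and -1.86 for ClpX (adjusted p 0.0033) in the authors' deposited tables. At its 3′ peak (chr16:17572914-17573302) the values were -1.9 (adjusted p 1e-10) and -2.08 (adjusted p 0.00017) in the authors' deposited tables. The 5′ sequence was read from the start window of a predicted gene on the opposite strand, as was that of Slc30a1 from another such gene, and the sources used here do not give whether counting used strand. Slc6a21, of the neurotransmitter carrier family, had a 3′ peak at -0.388 (adjusted p 1.3e-05) for ClpP and 1.33 (adjusted p 3.2e-26) for ClpX in the authors' deposited tables. Its more enriched upstream peak had -2.42 and -4.0, neither called in the authors' deposited tables. Slc7a6, an exchanger of cationic and neutral amino acids, had 0.93 (adjusted p 0.0019) at 1 of 3 peaks in the authors' deposited table for ClpX. Slc1a2, a glutamate carrier, had -2.08 (adjusted p 0.032) at 1 of 3 peaks in the same comparison of the authors' deposited table.

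Zinc and other metal carriers had 7 of 38 peaks called lower and 3 higher in ClpP cKO, and 2 of 37 called each way in ClpX cKO. The 18.4% lower and 7.89% higher for ClpP are near the 12.8% and 6.74% of all peaks, so the counts say nothing of metal carriers as a group. Slc30 genes move zinc out of the cytosol and Slc39 genes move it in. Slc30a1, the zinc exporter of the plasma membrane, had a strongly enriched peak with -0.976 (fold enrichment 47.3, adjusted p 2e-17) in the authors' deposited table for ClpP. Its value was -0.27, not called, in the authors' deposited table for ClpX. Slc30a4 and Slc30a6 were also called lower in ClpP cKO, at -0.649 (adjusted p 0.0054) and -1.03 (adjusted p 0.0016) in the authors' deposited table. On the import side, Slc39a6 and Slc39a10, which form a pair in one complex, had -0.656 and -1.06 (adjusted p 1e-10 for each) in the authors' deposited table for ClpP. Slc39a9 and Slc39a7 followed with -1.1 (adjusted p 0.0093) and -0.77 (adjusted p 0.0072) in the authors' deposited table for ClpP. The Slc39a7 peak shares bases with a predicted gene on the same strand. None of these 7 sites had a called peak in ClpX cKO as deposited, where their values ran from -0.586 (Slc39a7) to 0.185 (Slc39a6) in the authors' deposited table. After the ClpX median was subtracted, the sites of Slc39a7, Slc39a10 and Slc30a1 were among those called lower there.

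The 3 metal carrier peaks called higher in ClpP cKO belonged to Slc30a9, Slc31a1 and Slc30a2. Slc30a9, the mitochondrial zinc carrier, had 2.5 (adjusted p 0.00023) at a peak of 5 blocks over its 5′ part in the authors' deposited table for ClpP, the largest called rise of the carriers there. Slc31a1, the copper importer, had 1.32 (adjusted p 0.011) and Slc30a2, which loads zinc into vesicles, 1.16 (adjusted p 0.014) in the authors' deposited table for ClpP. In ClpX cKO the calls as deposited were on Slc39a3, Slc39a13, Slc30a5 and Slc41a2, and whether the comparisons differ in this was not tested. Slc39a3 and Slc39a13, both zinc importers, had 2.5 (adjusted p 1e-15) and 3.3 (adjusted p 0.0002) in the authors' deposited table for ClpX. Slc30a5, which moves zinc into the secretory pathway, had -1.29 (adjusted p 0.0058) and Slc41a2, a magnesium carrier, -1.16 (adjusted p 0.006) in the authors' deposited table for ClpX. Slc30a5 and Slc41a2 were not called at the same sites in ClpP cKO, with 0.101 and -0.00896 in the authors' deposited table.

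Ion exchangers and carriers of chloride, bicarbonate and phosphate were the group with the highest median in both comparisons, 0.10 in ClpP cKO and 0.51 in ClpX cKO. In ClpP cKO 3 of 43 peaks (6.98%, beside 6.74% of all peaks) were called higher and 2 lower (4.65%, beside 12.8%). Besides Slc26a8, the potassium-dependent sodium and calcium exchangers Slc24a3 (1.41, adjusted p 0.0022) and Slc24a5 (0.758, adjusted p 0.0076) were on the higher side of the authors' deposited table for ClpP. The Slc24a5 peak shares bases with a peak of Myef2 on the opposite strand and is uncertain. The sodium and proton exchanger Slc9a2 was called lower, with -1.42 (adjusted p 0.037) in the authors' deposited table for ClpP. In ClpX cKO 4 of 42 peaks were called higher, among them those of the potassium and chloride carrier Slc12a7 (2.18, adjusted p 0.0038), the sodium and calcium exchanger Slc8a2 (1.31, adjusted p 0.017) and the phosphate carrier Slc20a1 (0.801, adjusted p 0.037), per the authors' deposited table. The peak of Slc20a1 shares bases with a peak of another gene. Without the table's shift, Slc8a2 and Slc20a1 were no longer called. The 1 lower call was Slc26a2, a sulfate carrier, at -1.05 (adjusted p 0.005) in the authors' deposited table for ClpX.

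Nucleotide sugar and nucleoside carriers, which feed glycosylation in the Golgi and the endoplasmic reticulum, had 5 of 37 peaks called lower and 0 higher in ClpP cKO. In ClpX cKO 5 of 38 were called higher and 2 lower. These are 13.5% lower for ClpP and 13.2% higher for ClpX, near the 12.8% and 15.1% of all peaks. Slc35b4, which carries UDP-sugars, had -0.454 (adjusted p 5.6e-05) and Slc35c2, linked to GDP-fucose, -0.761 (adjusted p 0.0068) in the authors' deposited table for ClpP. Slc35f6 and Slc35b2, which carries the sulfate donor PAPS, had -0.524 (adjusted p 0.02) and -0.741 (adjusted p 0.042) in the authors' deposited table for ClpP, and the Slc35b2 call was lost after the ClpP median was subtracted. Slc37a3, of the sugar phosphate family, had -1.63 for ClpP (adjusted p 0.00046) and -2.11 for ClpX (adjusted p 0.002) in the authors' deposited tables, both called lower. For ClpX the called-higher peaks lay on Slc29a1, the nucleoside carrier ENT1 (1.2, adjusted p 0.0038), Slc35a4 (1.67, adjusted p 0.0012), Slc35e2 (1.81, adjusted p 0.025), Slc35a5 (1.83, adjusted p 0.049) and Slc35f6 (0.545, adjusted p 0.049) in the authors' deposited table. The Slc35e2 peak shares bases with a peak of another gene. Without the table's shift, only Slc29a1 and Slc35a4 of these 5 were still called.

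Carriers of vitamins, lipids and other substrates had 6 of 25 peaks called lower (beside 12.8% of all peaks) and 0 higher (beside 6.74%) in ClpP cKO, and their median of -0.56 was the lowest of the groups. In ClpX cKO 5 of 28 were called higher (17.9%, beside 15.1%) and 2 lower (7.14%, beside 5.00%), around a median of -0.09. Riboflavin carriers (Slc52) had 5 peaks in ClpP cKO, with 3 called lower and a median of -1.25, a count too small to set beside a share. Slc52a2 had -1.42 (adjusted p 4.1e-05) in the authors' deposited table for ClpP, and -0.784, not called, in that for ClpX. Slc52a3 had -0.609 and -1.25 at its first and middle peaks (adjusted p 8.5e-06 and 4.4e-10) in the authors' deposited table for ClpP. The same peaks had 0.99 (adjusted p 0.00012) and -0.0718, not called, in the authors' deposited table for ClpX. Slc44a2, a choline carrier, had -0.7 (adjusted p 5.9e-06) and Slc33a1, which moves acetyl-CoA into the endoplasmic reticulum, -0.951 (adjusted p 0.0003) in the authors' deposited table for ClpP. The Slc33a1 peak shares bases with a predicted gene on the opposite strand.

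Vitamin carriers called in ClpX cKO were Slc19a1, the folate carrier (2.53, adjusted p 0.0001), and Slc19a2, the thiamine carrier (1.68, adjusted p 0.0012), both higher in the authors' deposited table. Slc19a1 had no peak in the ClpP comparison. The fatty acid carriers were called in opposite directions in ClpX cKO, Slc27a4 at 1.35 (adjusted p 0.0029) and Slc27a1 at -0.836 (adjusted p 0.012) in the authors' deposited table. Slc10a3, an orphan of the bile acid family, had 3.96 (adjusted p 4e-09) at its 3′ peak, the largest rise of all carrier peaks, and -1.37 (adjusted p 0.029) at its upstream peak in the authors' deposited table for ClpX. The upstream peak had -2.19 (adjusted p 0.00048) in the authors' deposited table for ClpP, and it shares bases with Ubl4a on the same strand. Among di- and tricarboxylate carriers, Slc13a5, the citrate importer, had a 5′ peak with -1.26 for ClpP (adjusted p 0.021) and 1.01 for ClpX (adjusted p 0.034) in the authors' deposited tables. It overlaps a gene on the opposite strand, and the ClpX call was lost without the table's shift.

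Carrier peaks lay further towards the 3′ end than peaks of the tables at large, which was described over peaks whose gene span was known (243 for ClpP, 247 for ClpX). In the last 10% of the gene span lay 51.9% (ClpP) and 49.4% (ClpX) of carrier peaks, against 38.7% and 37.3% of all placed peaks. In the first 10% lay 9.05% and 12.1% of carrier peaks, against 8.60% and 10.6% of all. Peaks of more than 1 block, which span a splice junction in the tables, made up 19.6% and 18.9% of carrier peaks and 29.7% and 27.5% of all peaks. Of 22 carrier peaks in the first 10%, 5 were called lower (22.7%) and 0 higher in ClpP cKO, while of all peaks there 13.5% were lower and 2.86% higher. In ClpX cKO there were 30 such peaks, 4 of them called higher (13.3%) and 0 lower, beside 12.7% and 2.96% of all peaks there. Of 122 carrier peaks in the last 10% for ClpX, 9 were called higher (7.38%, exact binomial interval 3.43% to 13.5%). This is below the 15.0% of all peaks there. Called lower were 6 (4.92%), beside 4.51%. For ClpP 17 of 126 such peaks were called lower (13.5%) and 5 higher (3.97%), beside 11.5% and 6.4% of all peaks there.

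A carrier gene often had more than 1 peak, and these did not always go the same way. In the ClpP comparison 84 genes had 1 peak, 46 had 2, 19 had 3 and 4 had more, up to 5 on Slc45a4. In the ClpX comparison the numbers were 83, 44, 19 and 6. Called both ways in ClpP cKO were Slc26a8, Slc45a4 and Slc38a10. Slc45a4 had -1.05 (adjusted p 6.3e-12) over its upstream part and 0.649 (adjusted p 0.018) at a 3′ peak in the authors' deposited table for ClpP. Slc38a10, of an amino acid carrier family, had -0.735 (adjusted p 1.4e-06) at a peak 96.9% into the gene span and 1.41 (adjusted p 0.04) at one 98.6% into it, per the authors' deposited table for ClpP. Called both ways in ClpX cKO were Slc10a3, given above, and Slc35e2, with 1.81 upstream and -1.32 (adjusted p 0.0066) at its 3′ peak in the authors' deposited table. Slc22a16, with 3 peaks called lower in ClpP cKO, had all of its called peaks on the same side within each comparison.

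**Figure D4:**
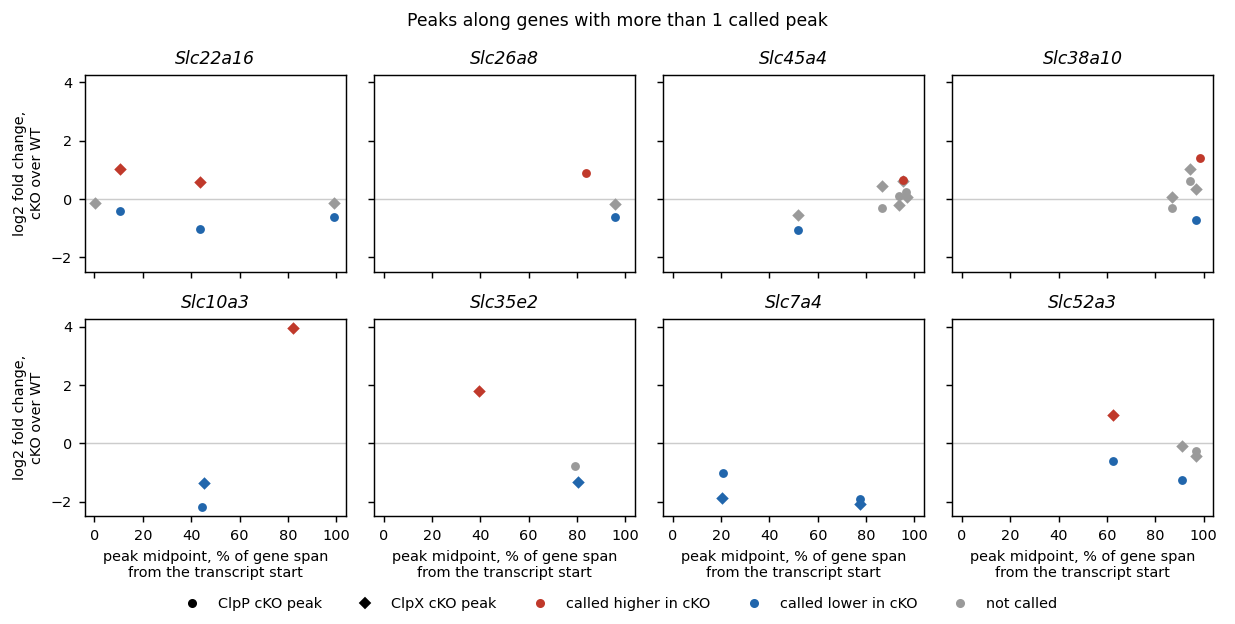
Log2 fold change (cKO over WT) of each peak against the midpoint of the peak as a percentage of the gene span from the 5′ end, for 8 carriers with more than 1 called peak over the comparisons (circles ClpP, diamonds ClpX). Slc26a8, Slc45a4 and Slc38a10 hold called peaks of both signs for ClpP, and Slc10a3 and Slc35e2 for ClpX. Both Slc7a4 peaks lie below 0 in both comparisons.

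Some carriers had a peak in 1 comparison alone, 14 for ClpP and 13 for ClpX, and of these only Slc19a1 and Slc39a13, both listed for ClpX, were called. Absence from a table says only that no peak was listed there. Other membrane transporters were counted in the same way. ATP-driven ABC transporters had 3 of 35 peaks higher and 4 lower in ClpP cKO and 6 of 40 higher and 0 lower in ClpX cKO. Their 11.4% lower for ClpP and 15.0% higher for ClpX were close to the 12.8% and 15.1% of all peaks. P-type and V-type ion pumps had 6 of 49 higher and 11 lower in ClpP cKO and 7 of 47 higher and 3 lower in ClpX cKO. For ClpP these are 22.4% lower and 12.2% higher, both above the 12.8% and 6.74% of all peaks. For ClpX they are 14.9% higher and 6.38% lower, beside 15.1% and 5.00%. Aquaporins, which are water channels, had 0 of 7 higher and 3 lower in ClpP cKO, and 2 of 6 higher and 1 lower in ClpX cKO. These counts are too small to set beside the shares of all peaks. Of 8 partner proteins of solute carriers, 4 had a peak for ClpP and 3 for ClpX, and none of their 7 and 6 peaks was called. Bsg and Emb, the chaperones of Slc16 carriers, had no peak in either comparison.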

How the data were processed

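Both tables used here hold comparisons made by the authors, one of ClpP cKO and one of ClpX cKO with WT, from m6A-seq of spermatocytes at postnatal day 35 (1 IP and 1 input library per genotype). Positions are in GRCm38 (mm10), as named in the submitters' processing notes. The aligner, peak caller, depth normalisation and use of strand: not given in the sources used here. Each peak has, per the file headers, a p-value, a linear fold enrichment (a ratio of IP over input), a log2 fold change between genotypes, and scores that are log10 forms of p-values and adjusted p-values. The authors deposited these values, and none is given per library.

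Peaks were called at the deposited adjusted p under 0.05. Carriers were taken by full match of the name. Medians, counts and exact binomial 95% intervals were computed with Python 3.11.15, pandas 2.3.3 and scipy 1.17.1, and the scripts were tested on simulated data. Since each group held 1 library, replicates could not be tested. Peaks of both tables were paired by at least 1 shared base on the same strand (211 pairs). Gene spans and start windows came from RefSeq (GRCm38.p6), matched by symbol for 166 of 166 genes. For centring, each peak's error was taken from its log2 fold change and p-value. The members, groups and lists were chosen with earlier results of these data known. Named carriers were, per comparison, the 8 called genes per direction with the smallest adjusted p, up to 2 per direction and functional group, and all members of the germ cell and mTORC1 lists, and further called carriers were named after their values were seen. A gene that the rule takes is left out of the text. A split by coding part and UTR was not made. Alternatives were a stricter adjusted p, a fold change minimum, centring, 2 enrichment filters, leaving out peaks shared with another gene, a looser name match, and counting genes.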

Additional observations from a re-analysis of the deposited data

Results flagged for a closer look

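Some sites were called lower in ClpP cKO and higher in ClpX cKO, each against the same WT libraries. The difference between the knockouts was not tested at any of them. How often sites of other genes did this was not counted. Over all peaks, 12.8% were lower and 6.74% higher for ClpP, and 15.1% higher and 5.00% lower for ClpX. All sites but that of Slc35f6 lay below the median fold enrichment for ClpX, in the part where 24.3% of all peaks were called higher. All values are log2 fold changes from the authors' deposited tables, ClpP first and ClpX second. Slc22a16, the carnitine carrier of the testis, had -0.4 and 1.04 at its 5′ peak and -1.02 and 0.592 at its middle peak. Slc2a3, the glucose carrier GLUT3, had -0.36 and 0.921, and Slc6a21 had -0.388 and 1.33 at the 3′ peak. Slc52a3, a riboflavin carrier, had -0.609 and 0.99 at its first peak. Slc13a5, the citrate importer, had -1.26 and 1.01 at a 5′ peak that overlaps another gene. The 3′ peak of the carnitine carrier Slc22a21 had -0.339 and 0.572, and Slc35f6 had -0.524 and 0.545. After the ClpX median was subtracted, the peaks of Slc13a5 (0.77), Slc22a21 (0.33) and Slc35f6 (0.31) were no longer called in ClpX cKO, and the values of Slc22a16 (0.8 and 0.35), Slc2a3 (0.68), Slc6a21 (1.09) and Slc52a3 (0.75) were still called higher.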

How the results depend on the processing

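Of 51 recomputed values, 35 stayed within a factor of 1.5 (counts) or 0.1 (medians on the log2 scale), 14 moved further and 2 turned their sign. Within that factor, centring still took ClpP higher calls to 12 and ClpX higher calls to 20. The ClpX median of 0.19 became -0.05 with the table median subtracted, -0.08 over peaks with an enrichment above the table median, and 0.09 over genes by their most enriched peak. Over genes by their smallest p, the ClpP median of -0.16 became -0.36. Of 8 ClpP peaks called higher, 4 passed an adjusted p under 0.01, 5 a log2 change of 1 or more in size, and 4 were above the median enrichment, and over genes there were 5 by smallest p and 4 by enrichment. Of 39 called lower for ClpP, 16 passed the fold change minimum and 24 were above the median enrichment. Of 29 called higher for ClpX, 19 passed the fold change minimum, 4 were above the median enrichment, and 10 were left over genes by enrichment. Of 13 called lower for ClpX, 8 passed the stricter p, and centring gave 39, with no count over all peaks to set beside it. The enrichment filter kept 131 of 254 ClpX peaks but 4 of 29 higher calls, since 25 of these lay on weakly enriched peaks. For the other changes the cause was not tested. The Slc35b2 peak was no longer called lower for ClpP after centring. Depth could not be judged, since the tables hold no counts. No paired analysis was possible because each group held 1 library.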
